A study of Mus musculus with 6 samples.

Results

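ATP-dependent chromatin remodellers are enzymes that spend ATP to slide, evict or exchange nucleosomes. The genes described here are 53 mouse genes of the SWI/SNF, ISWI, CHD, NuRD and INO80 families and related SNF2-like ATPases. They were chosen by name and by the complex they belong to, with earlier results of these data known. Of these, 50 were among the 10520 genes of the count table, and 44 passed the filter on low counts, which left 8969 genes to be tested. Arid1b, Smarca1 and Smarcal1 were not analysed here.

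The cells were E0771, a mouse breast carcinoma line of C57BL/6 origin, sequenced in bulk by MARS-seq, a method that reads the 3′ ends of polyadenylated RNA and tags each captured molecule with a unique molecular identifier (UMI). The 3 shControl libraries came from cells transduced with the empty lentiviral vector pLKO.5-puro, and the 3 shLmna libraries from cells transduced with a vector for an shRNA against Lmna, the gene of the nuclear lamina proteins lamin A and lamin C. Both groups went through the same transduction and were selected in puromycin at 3 µg/ml, and the labels describe selection and expansion with no cloning step. The labels do not say that the 3 libraries of a group came from separate cultures, so the p-values measure only the spread between these libraries, which may be technical. The question addressed is which remodelling genes differ in their transcripts between lamin A/C knockdown and control cells.

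Each complex is built around a catalytic ATPase of the SNF2 type. SWI/SNF complexes (BAF and PBAF) move and eject nucleosomes and open regulatory DNA. ISWI complexes space nucleosomes evenly. NuRD joins a CHD-type ATPase to histone deacetylases and is mostly associated with repression, and the INO80 family exchanges histone variants around promoters and damaged DNA. Lamin A/C lies under the nuclear envelope, where much of the heterochromatin is anchored.

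The libraries held between 1846208 and 3242051 UMIs. Lmna, the targeted gene, was counted at 2066, 2794 and 1764 UMIs across shControl (replicates 1, 2 and 3, the order used throughout) against 1035, 1023 and 713 across shLmna, a log2 fold change (shLmna over shControl, here and throughout) of -1.20 ± 0.13 (SE, n = 3 per group, edgeR's quasi-likelihood test, Benjamini-Hochberg adjusted p = 3.5e-05). Of 8 epithelial markers 3 were in the table, Krt8, Krt18 and Epcam, which together lay between 261 and 324 CPM (UMIs scaled to a common library total) in every library. Most of this sum was Krt8. Epcam was lower in shLmna, with 34, 46 and 25 UMIs in shControl and 14, 32 and 8 in shLmna. Krt18 had 19, 14 and 17 UMIs in shControl and 7, 20 and 7 in shLmna. A pair of libraries stood apart. The 6 melanoma markers of the table (Dct, Mlana, Pmel, Tyrp1, Mitf and Sox10, of 7 listed) summed to 749 CPM in shControl replicate 3 and to 629 in shLmna replicate 2, against 0.739 to 5.62 in the other 4. The study also used B16F10 melanoma cells. One such library lies in each group, and each remodelling gene past the test is given below with and without both. Markers of 3 other cell types stayed low. The fibroblast list (5 of 8 in the table) summed to between 18 and 18.5 CPM in shControl and between 32.9 and 37.9 in shLmna, the leukocyte list (4 of 8) to between 16.9 and 20.7 and between 22.9 and 26.6, and the endothelial list (2 of 6) to between 5.55 and 7.12 and between 1.85 and 3.82. Col3a1, of the fibroblast list, was at 0 in every shControl library and at 12 to 13 UMIs in shLmna. Whether these differences have a part in the results below was not tested.

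In shLmna 6 of the 44 tested remodelling genes were higher (13.6%, against 7.96% of all tested genes) and 2 were lower (4.55%, against 5.78%). Smarcad1, Hells and Smarca5, which all encode SNF2-type ATPases, went from 8 UMIs or fewer to between 14 and 72 UMIs per library. The NuRD genes Mta1, Rbbp7 and Chd3 rose by less than 2-fold. Ruvbl1, of the INO80 family, and Dpf2, of SWI/SNF, fell to 0.696 and 0.698 times their shControl levels. The rise of Mta1 and of the 3 low ATPases passed the test with each library left out in turn. Rbbp7, Chd3, Ruvbl1 and Dpf2 kept their direction and passed in 1, 1, 2 and 3 of these 6 fits. Over all tested genes the number past the test also fell, from 1232 to between 540 and 866. Only without shControl replicate 3 did it rise, to 1580. The 3 low ATPases were kept by the filter only through their shLmna libraries. They had to differ to be tested at all, so passing again adds little for them.

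The 3 tested genes with the largest changes started from very low counts, and the filter kept them only through their shLmna libraries. Chd9, described below, was too low for the filter and is not included. The promoters of Smarcad1, Hells and Smarca5 are shown. Each is a 300-base window around the outermost start listed by RefSeq (GRCm38.p6), written 5′ to 3′ on the strand of the gene, and capitals mark the letters of the motifs searched for.

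Smarcad1 (chr6:65042341-65042640, + strand): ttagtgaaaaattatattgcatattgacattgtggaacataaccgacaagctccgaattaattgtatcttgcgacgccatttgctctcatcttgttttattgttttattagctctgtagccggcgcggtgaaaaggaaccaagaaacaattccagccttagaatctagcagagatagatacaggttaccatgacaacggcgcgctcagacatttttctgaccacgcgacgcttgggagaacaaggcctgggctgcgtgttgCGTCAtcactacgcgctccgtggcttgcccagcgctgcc
Hells (chr19:38930740-38931039, + strand): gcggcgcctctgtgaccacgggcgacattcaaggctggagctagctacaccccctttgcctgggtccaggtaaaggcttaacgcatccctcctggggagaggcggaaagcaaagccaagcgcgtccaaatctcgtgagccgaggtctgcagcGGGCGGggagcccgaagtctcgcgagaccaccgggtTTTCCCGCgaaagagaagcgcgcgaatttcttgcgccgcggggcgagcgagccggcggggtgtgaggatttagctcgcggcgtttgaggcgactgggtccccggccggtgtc
Smarca5 (chr8:80739410-80739709, - strand): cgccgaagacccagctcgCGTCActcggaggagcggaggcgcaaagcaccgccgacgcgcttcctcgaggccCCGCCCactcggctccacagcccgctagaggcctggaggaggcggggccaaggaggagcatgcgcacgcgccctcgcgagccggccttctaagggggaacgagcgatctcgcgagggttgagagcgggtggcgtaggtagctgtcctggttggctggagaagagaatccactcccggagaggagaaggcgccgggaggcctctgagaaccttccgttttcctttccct

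The motifs, searched on both strands, were the CCAAT box (CCAAT), the GC box (GGGCGG), an E2F motif (TTTCCCGC, TTTGGCGC or TTTCGCGC), a YY1 motif (AAGATGG), the CRE core (TGACG) and the TATA box (TATAAA). None of these overlaps another in the windows shown. The Hells window held 1 GC box and 1 E2F motif, that of Smarca5 held 1 GC box and 1 CRE core, and that of Smarcad1 held 1 CRE core. No motif was in all 3. The Hells and Smarca5 windows were CpG-rich, with 34 and 32 CpG and a GC content of 65.7% and 67.7%, whereas the Smarcad1 window had 19 CpG and 47.3%. RefSeq windows were matched for 39 of the 50 remodelling genes in the table, with a median GC content of 65.7% and 29 CpG, against 52.7% and 7 CpG over 27025 promoters. These 27025 were not limited to genes of the count table, so the comparison also sets counted genes against all annotated ones. GC boxes were in 89.7% of the 39 windows and 35.9% of all promoters, E2F motifs in 7.7% and 1.9%, CRE cores in 30.8% and 20.9%, CCAAT boxes in 35.9% and 38.0%, YY1 motifs in 7.7% and 6.5%, and TATA boxes in 10.3% and 14.2%. These are matches of letters and do not show that a factor binds there.

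Smarcad1 (chromosome 6, 65042583 to 65116061, mm10) encodes an ATPase outside the main families, known for helping to restore silent chromatin behind the replication fork. It was counted at 0, 1 and 0 UMIs in shControl against 14, 32 and 20 in shLmna. The groups did not overlap, and nearly all its molecules were in shLmna. With a single UMI in shControl the size of the change is poorly set: the depth-scaled ratio of summed UMIs was 71.9, with an exact 95% interval from 12.5 to 2881 that covers counting error only, and the ratio fell to 7.46 when each shControl library was put at a floor of 3 UMIs. Smarcad1 passed the test (log2 fold change 5.67 ± 0.73, adjusted p = 0.00016).

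Hells (chromosome 19, 38930915 to 38971051) encodes lymphoid-specific helicase, an SNF2-like ATPase needed for normal DNA methylation of repeats. It had 3, 3 and 6 UMIs in shControl and 64, 67 and 72 in shLmna. The lowest shLmna library was thus far above the highest of shControl. In normalised counts, which are UMIs divided by each library's size factor, Hells went from 4.31 ± 3.01 to 70.6 ± 19.7 (SD, n = 3), a log2 fold change of 4.12 (95% interval 3.29 to 4.96, adjusted p = 1e-05). In these bulk libraries a change in the RNA per cell and a change in the share of cells that carry it cannot be told apart, here and for every gene below.

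Smarca5 (chromosome 8, 80698507 to 80739497) encodes SNF2H, the catalytic subunit of most ISWI complexes. Its UMIs were 8, 2 and 6 in shControl and 38, 55 and 48 in shLmna, with no overlap. The mean normalised count rose from 5.65 ± 3.57 to 48.7 ± 13.8 (SD, n = 3), a log2 fold change of 3.18 (95% interval 2.28 to 4.09, adjusted p = 0.000203).

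Smarcad1, Hells and Smarca5 were the 3 remodelling genes that met the criteria for differential expression (mean normalised count above 5, absolute log2 fold change above 1 and adjusted p below 0.05). That is 6.82% of the 44 tested, and over all tested genes the share was 5.71%, and 3.97% for genes called higher. All 3 were kept by the filter only through their shLmna libraries, so they had to differ to be tested at all. Of the 157 genes kept in this way, 118 were called. Without the filter the same 3 genes were called. Without the pair of libraries with melanoma markers their log2 fold changes were 5.11, 4.81 and 3.43, and all 3 passed the test. Depth limits these values, since the shControl counts lie at or near the floor of detection.

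**Figure D1:**
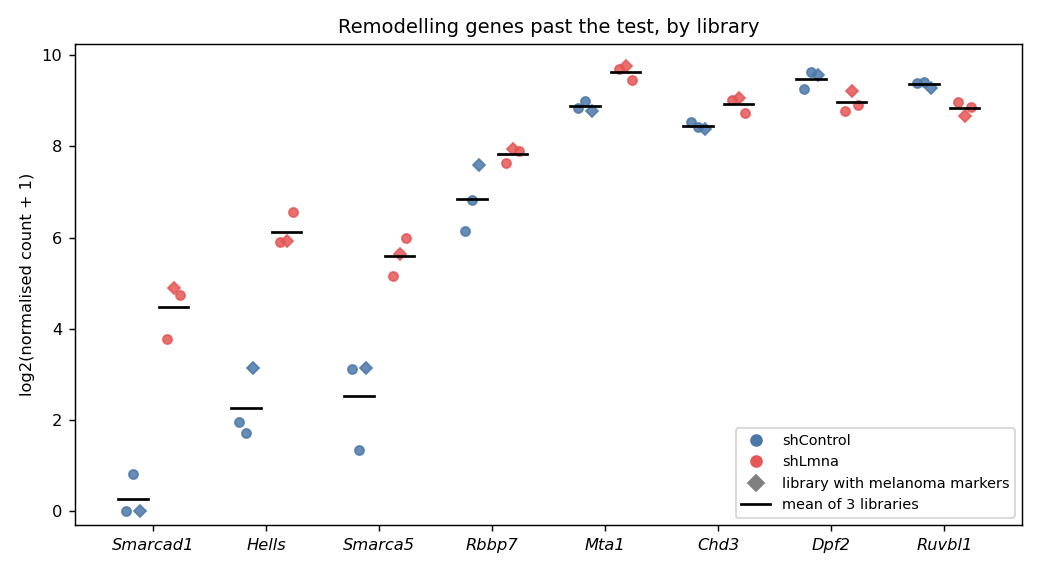
Normalised counts of the 8 remodelling genes that passed the test, on a log2 scale after adding 1, for the 3 shControl (blue) and 3 shLmna (red) libraries. Diamonds are the libraries with melanoma markers and bars are means of 3 libraries. Smarcad1, Hells and Smarca5 sit near the bottom in shControl, while the other 5 were well counted in both groups.

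By the adjusted p alone, 8 of the 44 passed (18.2%), and over all tested genes 13.7% passed. With the GC correction described below the same 8 passed, while over all genes 16.8% did, 8.15% higher and 8.64% lower. With a mean count of at least 50 required, 8.82% of the remodelling genes passed against 13.3% of all genes. In 17 of the 44 (38.6%) the libraries of the groups did not overlap, and over all tested genes this was so for 32.5%. The median log2 fold change was 0.09 over the 44 and 0.0033 over all tested genes, and 25 of the 44 were positive. No test was made of these shares against those of all genes, and the list was chosen with earlier results of these data known. With any 1 library other than shControl replicate 3 left out, 4 or 5 of the 8 passed. That was 8.7 to 11.4% of the remodelling genes, against 5.89 to 9.43% of all genes in the same fits. Without both libraries with melanoma markers 6 did (13.6%, against 13.2%). Among the 14 tested SNF2-type ATPases 4 rose (28.6%, against 7.96% of all tested genes) and none fell (against 5.78%). Of these 4, 3 were kept only through their shLmna libraries, so they had to differ to be tested at all. Among the 30 other tested genes, which include the AAA+ ATPases Ruvbl1 and Ruvbl2, 2 rose and 2 fell (13.3% together, against 13.7%). Again no test was made.

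**Figure D2:**
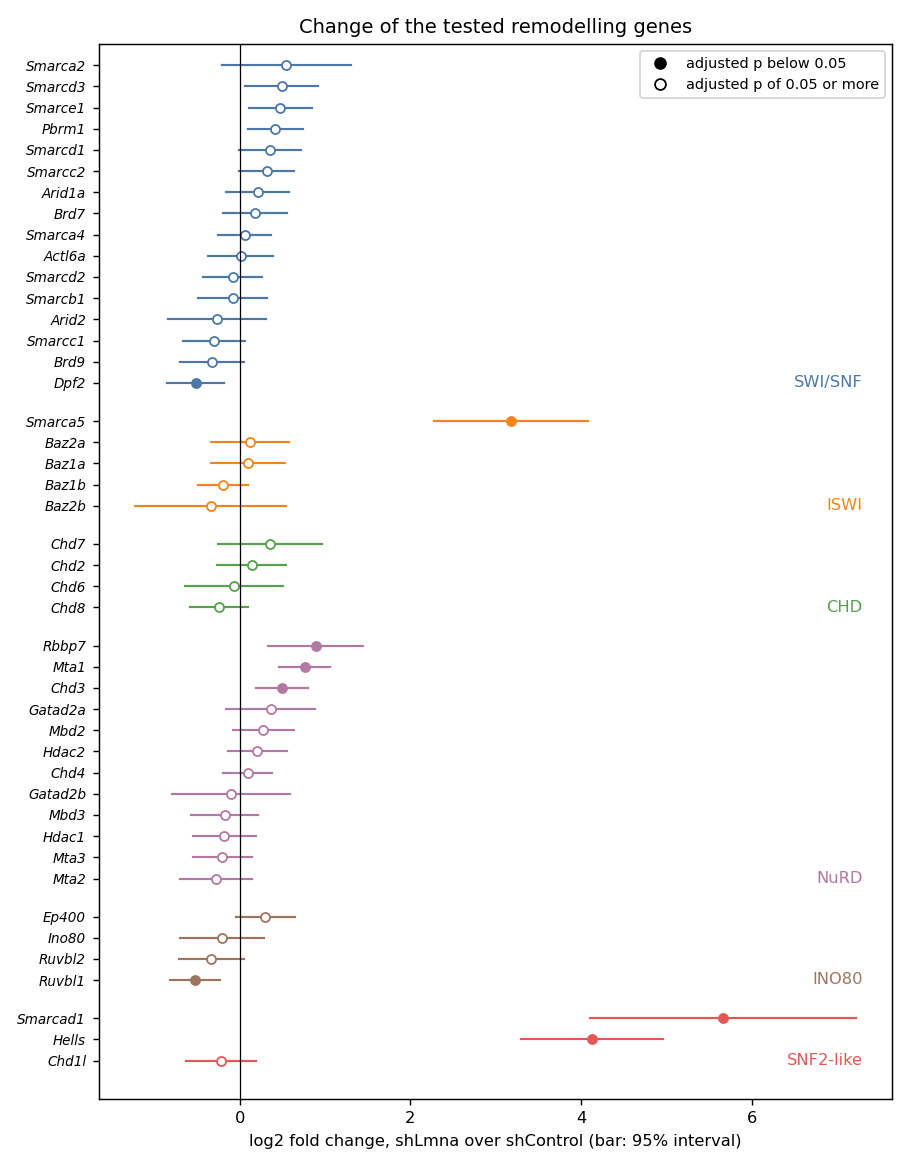
Log2 fold change (shLmna over shControl) of the 44 tested remodelling genes with 95% intervals, by family. Filled points passed the test at an adjusted p below 0.05. Most intervals span 0, and the points of Smarcad1, Hells and Smarca5 lie at 5.67, 4.12 and 3.18.

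Other ISWI genes did not follow Smarca5. Its partner subunits Baz1a (ACF complex), Baz1b (WICH), Baz2a (NoRC) and Baz2b were tested, and none passed, with log2 fold changes from -0.34 for Baz2b to 0.12 for Baz2a. The value of Baz2b was unsteady at its low counts, at -1.08 without both libraries with melanoma markers, -0.92 with the GC correction and 0.0059 without shControl replicate 1, and it passed in none of these. Baz1b was the best counted of them, with normalised counts of 366, 361 and 336 in shControl and 314, 303 and 312 in shLmna. Its groups did not overlap, but the change of -0.20 (95% interval -0.48 to 0.09) did not pass. Summed over the 7 ISWI genes in the table, the level lay between 194 and 213 in shControl and between 209 and 214 CPM in shLmna. Bptf and Rsf1 were too low to test, with 2, 8 and 7 UMIs of Bptf in shControl and 10, 5 and 5 in shLmna, and 8, 6 and 8 against 3, 5 and 2 of Rsf1. The exact 95% interval of the ratio of summed UMIs ran from 0.64 to 2.60 for Bptf and from 0.21 to 1.09 for Rsf1, so a change of moderate size was not detectable for either.

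In NuRD 3 of 12 tested genes rose and none fell, where 7.96% of all tested genes were higher and 5.78% lower, and the calls of Rbbp7 and Chd3 were each lost in 5 of 6 fits with a library left out. Mta1 (chromosome 12, 113098278 to 113137206), a scaffold that binds the deacetylases, had 481, 667 and 340 UMIs in shControl and 901, 966 and 542 in shLmna. After normalisation the groups were well apart, at 469 ± 35.3 and 797 ± 84.1 (SD, n = 3). The log2 fold change was 0.76 (95% interval 0.46 to 1.06, adjusted p = 0.00249). It was 0.66 without the pair of libraries with melanoma markers (adjusted p = 0.0111).

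Rbbp7 (chromosome X, 162760402 to 162779092) encodes a histone-binding subunit that NuRD shares with Polycomb complexes. Its UMIs were 73, 147 and 149 in shControl and 218, 275 and 183 in shLmna. The shControl libraries were unequal, with normalised counts of 69.8, 112 and 193, the highest in the library with melanoma markers. The mean went from 125 ± 62.5 to 228 ± 24.9 (SD, n = 3), a log2 fold change of 0.89 (95% interval 0.33 to 1.45, adjusted p = 0.0342). This call was lost when any library other than shControl replicate 3 was left out (adjusted p from 0.0732 to 0.178), and without shControl replicate 3 the change was 1.30 (adjusted p = 0.000178). Without both libraries with melanoma markers it was 1.24 (adjusted p = 0.000481), which met the criteria for differential expression and made Rbbp7 the fourth such gene in that fit. With a mean count of at least 50 required, the change was 0.89 and the adjusted p 0.0619. The counted end of Rbbp7 overlaps exon sequence of Txlng on the other strand, and whether the counting used strand is not given in the sources used here.

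Chd3 (chromosome 11, 69343273 to 69369406) encodes one of the ATPases of NuRD. It had 388, 449 and 256 UMIs in shControl and 567, 593 and 328 in shLmna. Normalised counts did not overlap and rose from 348 ± 20.6 to 491 ± 57.6 (SD, n = 3), a log2 fold change of 0.50 (95% interval 0.19 to 0.80, adjusted p = 0.0311). The call held in 1 of 6 fits with a library left out, that without shLmna replicate 3, and the adjusted p was between 0.0546 and 0.121 in the other 5. The change lay between 0.44 and 0.59 over the 6 fits. Without the pair of libraries with melanoma markers the adjusted p was 0.121, with a change of 0.41.

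Chd4, the other NuRD ATPase and the better counted one, had 993, 1139 and 625 UMIs in shControl and 1022, 1098 and 679 in shLmna. Its groups overlapped, and the change of 0.09 (95% interval -0.19 to 0.37) did not pass. The deacetylases Hdac1 and Hdac2, the methyl-DNA-binding-domain subunits Mbd2 and Mbd3, the GATA zinc-finger subunits Gatad2a and Gatad2b, and Mta2 and Mta3 did not pass, with changes from -0.28 for Mta2 to 0.36 for Gatad2a. Mta2 had normalised counts of 645, 537 and 327 in shControl and 464, 384 and 402 in shLmna. It was lower past the test when shControl replicate 3 was left out (-0.51, adjusted p = 0.031) and did not pass without both libraries with melanoma markers (-0.44, adjusted p = 0.0928). Rbbp4, the paralog of Rbbp7, was too low to test, with 9, 7 and 4 UMIs in shControl and 10, 10 and 9 in shLmna, a ratio of summed UMIs of 1.58 (exact 95% interval 0.86 to 2.94, counting error only). Its counted end overlaps exon sequence of Sync on the other strand. Summed over the 13 NuRD genes in the table, the level was between 1724 and 2002 CPM in shControl and between 1982 and 2175 CPM in shLmna, and the groups overlapped.

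Shares within sets of paralogs compare the members of a pair or trio in the same library, so that library size cancels. The sets were picked after the values had been seen, and the shares are given without a test. No background over other paralog sets was taken. Taken singly, 32.5% of all tested genes did not overlap between groups in normalised counts. The shares of Mta1 and Chd3 use the same counts as their changes above. Mta1 made up 36.8, 43.1 and 49.1% of the UMIs of Mta1, Mta2 and Mta3 in shControl and 58.2, 63.2 and 58.0% in shLmna. Mta2 went the other way, from 51.6, 45.5 and 36.5% to 32.8, 28.1 and 33.2%, and lay above Mta1 in shControl replicates 1 and 2 and below it in every other library. Chd3 made up 28.1, 28.3 and 29.1% of Chd3 and Chd4 in shControl and 35.7, 35.1 and 32.6% in shLmna. Shares of the core SWI/SNF scaffolds also stood apart: Smarcc1 made up 35.2, 42.2 and 35.5% of Smarcc1 and Smarcc2 in shControl and 26.7, 30.3 and 27.3% in shLmna. The 3 Smarcd genes likewise did not overlap in their shares. The groups overlapped for Smarca2 with Smarca4, Rbbp4 with Rbbp7, Hdac1 with Hdac2, Mbd2 with Mbd3 and Ruvbl1 with Ruvbl2.

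**Figure D3:**
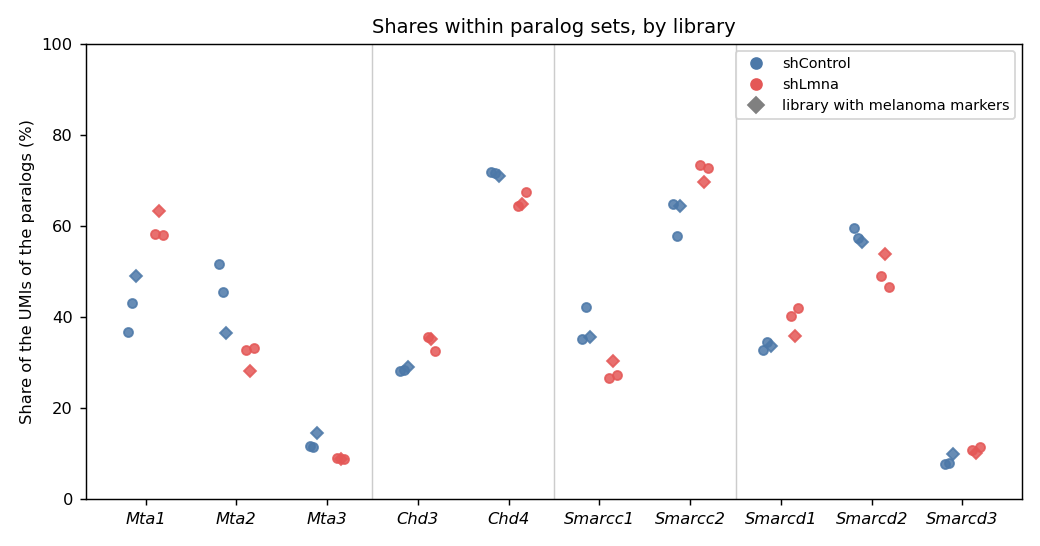
Share of each paralog in the UMIs of its set, in percent, for the 3 shControl (blue) and 3 shLmna (red) libraries, with diamonds for those with melanoma markers. Vertical lines part the 4 sets whose shares did not overlap between groups, out of sets picked after the values had been seen. Mta1 lies between 36.8 and 49.1% in shControl and between 58.0 and 63.2% in shLmna.

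Of the 16 SWI/SNF genes, all tested, 1 passed (6.25%, against 13.7% of all tested genes). Dpf2 (chromosome 19, 5896516 to 5913010), a PHD-finger subunit of canonical BAF, had 643, 1037 and 587 UMIs in shControl and 478, 661 and 372 in shLmna. The groups did not overlap after normalisation, although the highest shLmna library, at 592, came close to the lowest of shControl, at 615. The mean went from 722 ± 93.7 to 504 ± 79.6 (SD, n = 3), a log2 fold change of -0.52 (95% interval -0.85 to -0.18, adjusted p = 0.0392). The call was lost without shControl replicate 2, shLmna replicate 1 or shLmna replicate 3 (adjusted p = 0.167, 0.127 and 0.134), and held without the pair of libraries with melanoma markers (-0.61, adjusted p = 0.0216). With a mean count of at least 50 required, the change was -0.51 and the adjusted p 0.0531.

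Smarca4, which encodes Brg1, the more abundantly counted of the alternative SWI/SNF ATPases, had 591, 902 and 402 UMIs in shControl and 666, 668 and 494 in shLmna. The groups overlapped, and the change was 0.06 (95% interval -0.25 to 0.36). Smarca2, which encodes Brm, was low, with 14, 12 and 10 UMIs in shControl and 15, 17 and 18 in shLmna, and its interval was wide (0.55, from -0.21 to 1.31). Among the other subunits, Smarce1 (0.48) and Pbrm1 (0.42) were nearest to passing, each with an adjusted p of 0.0857, and Smarcd3 (0.49) followed with 0.117. Smarce1 passed when shControl replicate 3 was left out (adjusted p = 0.0481) and not without both libraries with melanoma markers (0.59, adjusted p = 0.0663). The core subunits Smarcb1 (-0.08) and Actl6a (0.01) and the ARID subunits Arid1a (0.21) and Arid2 (-0.27) had intervals that span 0. The counted ends of Actl6a, Smarcd2 and Smarcd3 overlap exon sequence of Mrpl47, Psmc5 and Chpf2 on the other strand. That of Arid2 overlaps Gm25397 on its own strand. The sum over the 16 SWI/SNF genes was between 1663 and 1754 CPM in shControl and between 1671 and 1873 CPM in shLmna, and the groups overlapped.

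In the INO80 family 1 of 4 tested genes passed, where 13.7% of all tested genes did, and so small a number says little about the family. Ruvbl1 (chromosome 6, 88465409 to 88497572), an AAA+ ATPase shared by the INO80, SRCAP and TIP60 complexes, had 705, 889 and 479 UMIs in shControl and 545, 454 and 361 in shLmna. Normalised counts were 657 ± 32.6 and 457 ± 46.7 (SD, n = 3) without overlap, a log2 fold change of -0.52 (95% interval -0.82 to -0.23, adjusted p = 0.0204). The call held without shControl replicate 3 and without shLmna replicate 1, and with each of the other 4 left out the adjusted p was between 0.0517 and 0.0997. With each library left out the change lay between -0.60 and -0.44. Without the pair of libraries with melanoma markers the adjusted p was 0.0547, with a change of -0.48. Its partner Ruvbl2 had a change of -0.33 (95% interval -0.71 to 0.04), and the counted end of Ruvbl2 overlaps exon sequence of Lhb on the other strand.

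The catalytic subunits of this family did not pass. Ino80 had 169, 220 and 65 UMIs in shControl and 157, 124 and 82 in shLmna (-0.21, 95% interval -0.70 to 0.28). Ep400, of the TIP60 complex, had 144, 222 and 143 and 203, 245 and 154. After normalisation its groups did not overlap, but the change of 0.30 (95% interval -0.05 to 0.65) did not pass. Srcap, which deposits the histone variant H2A.Z, was too low to test, with 0, 4 and 2 UMIs in shControl and 6, 7 and 3 in shLmna, a ratio of 2.90 (exact 95% interval 1.08 to 9.06, counting error only). The counted end of Srcap overlaps annotated genes on both strands (Gm42715 and Gm28198). Summed over the 5 genes of the family in the table, the level was 648, 592.5 and 554.7 CPM in shControl and 536, 487 and 481.5 in shLmna, without overlap. Ruvbl1 and Ruvbl2 made up most of this sum in every library, while the estimates for Ep400 and Srcap pointed upward.

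None of the 4 tested CHD genes outside NuRD passed, where 13.7% of all tested genes did. Chd8 had 290, 452 and 198 UMIs in shControl and 295, 245 and 199 in shLmna, and a change of -0.24 (95% interval -0.58 to 0.10). Chd2 had 152, 153 and 73 and 166, 139 and 91 (0.14). Chd6 had 38, 46 and 28 and 40, 48 and 16 (-0.07). Chd7, mutated in CHARGE syndrome, had 20, 21 and 15 and 24, 28 and 17 (0.36, 95% interval -0.25 to 0.97), and its normalised counts did not overlap between groups. Chd1 was too low to test, with 8, 10 and 8 UMIs in shControl and 8, 10 and 4 in shLmna (ratio 0.92, exact 95% interval 0.50 to 1.69). Chd1l, an SNF2-like ATPase that answers to poly(ADP-ribose) at DNA breaks, had 94, 125 and 59 and 77, 99 and 51 (-0.22, 95% interval -0.63 to 0.20). With Hells and Smarcad1 it makes up the SNF2-like genes in the table, whose sum was 36.35, 39.79 and 34.27 CPM in shControl and 57.27, 75.67 and 77.46 CPM in shLmna.

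Chd9 was too low for the filter, and its counts were split between the groups much as those of Smarcad1. It had 0, 1 and 0 UMIs in shControl and 6, 13 and 4 in shLmna, a depth-scaled ratio of summed UMIs of 25.0 with an exact 95% interval from 4.07 to 1032 for counting error. With each shControl library at 3 UMIs the ratio was 2.47. Fitted without the filter, its log2 fold change was 4.13 ± 0.94 (SE, adjusted p = 0.0127). This made 9 of 50 genes past the test in that fit (18%), the other 8 being those above, against 11.5% of all genes in the same fit.

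The counted ends of the genes with the largest changes were poor in G and C. GC content in the last 1000 bases of the transcript was 35.1% for Smarcad1, 35.4% for Hells, 39.3% for Smarca5 and 38.7% for Rbbp7, and 34.7% for Chd9, against a median of 44.3% over the tested remodelling genes and 47.1% over all tested genes. Mta1 and Chd3, at 54.9% and 54.8%, lay on the other side. Baz2b (33.9%), Pbrm1 (35.4%), Chd7 (36.2%), Chd6 (36.7%) and Hdac2 (37.9%) were also poor in G and C and did not pass. Their changes were -0.34, 0.42, 0.36, -0.07 and 0.21. A correction for the trend of each library with GC content was fitted as an alternative. It took the log2 fold change of Smarcad1 to 5.26, of Hells to 3.70, of Smarca5 to 3.04 and of Rbbp7 to 0.75, and left Mta1 at 0.78 and Chd3 at 0.52. All 8 still passed the test. The median over the 44 moved from 0.09 to -0.0028, while that of all tested genes moved from 0.0033 to -0.03.

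**Figure D4:**
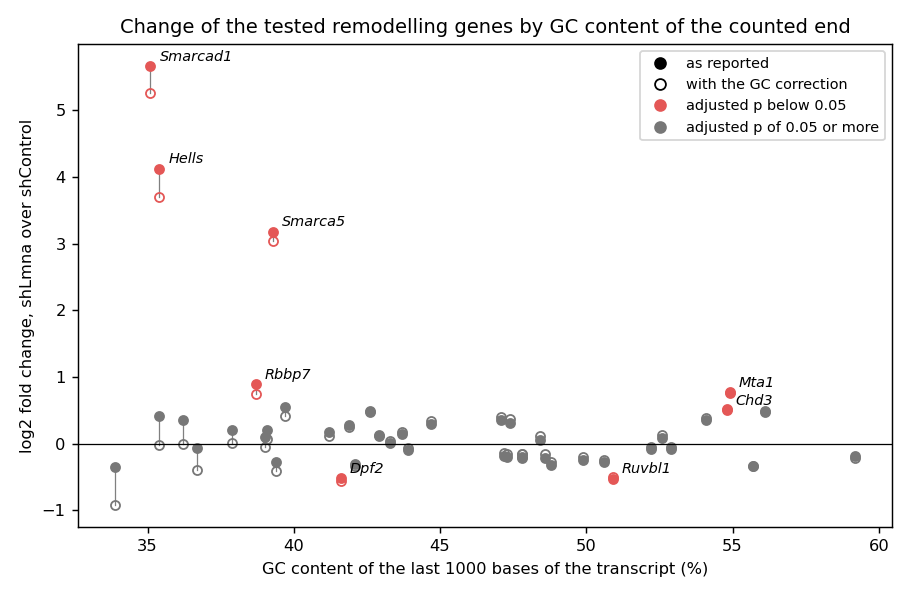
Log2 fold change of the 44 tested remodelling genes against the GC content of the last 1000 bases of the transcript, in percent. Filled points are as reported and open points after the GC correction, joined by a line, with red for an adjusted p below 0.05 as reported. The genes at the left move down with the correction, and Smarcad1, Hells and Smarca5 stay at 5.26, 3.70 and 3.04.

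The other subunits of the same complexes, and further SNF2-like ATPases, were taken as a list of 51 genes, 42 of them in the table and 39 tested. This list too was chosen with earlier results of these data known. Of the 39 tested 1 passed (2.56%), against 13.7% of all tested genes, and the difference was not tested. This share depended on the processing. With the GC correction 5 of the 39 passed (12.8%, against 16.8% of all genes), with a replicate block 3 (7.69%, against 15.1%) and with both 6 (15.4%, against 15.6%). Ino80e (chromosome 7, 126850960 to 126862377), an accessory subunit of INO80, had normalised counts of 1067 ± 52.5 in shControl and 769 ± 65.8 in shLmna (SD, n = 3), a log2 fold change of -0.47 (SE 0.13, adjusted p = 0.0298). The call was lost without shControl replicate 2, shLmna replicate 2 or shLmna replicate 3 (adjusted p = 0.11, 0.088 and 0.112), and without the pair of libraries with melanoma markers (0.0841). The median change over the 39 was -0.20. The counted end of Ino80e overlaps exon sequence of Doc2a on the other strand.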

How the data were processed

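MARS-seq libraries of 3 shControl and 3 shLmna samples were compared, grouped by the sample labels. The authors prepared RNA from E0771 cells with oligo-dT beads, trimmed reads with Cutadapt, mapped them to mm10 with STAR 2.4.2a and used a modified HTSeq-count to count UMIs at RefSeq gene ends (the final 1000 bases plus 100 beyond). The deposited counts are whole numbers without normalization, and every gene in the table reaches at least 6 UMIs in some library. The authors also deposited ComBat-corrected log2 values and a DESeq2 table of fold changes and p-values, which were not used here.

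Counts were tested in R 4.3.3 with edgeR 4.0.16 (filterByExpr with a minimum count of 10, TMM, quasi-likelihood test, two-sided, Benjamini-Hochberg over all tested genes) without a replicate block. The SE is the absolute log2 fold change over the square root of F. DESeq2 1.42.0, limma-voom (limma 3.58.1), RLE and upper-quartile scaling, no filter, a mean count of at least 50, a replicate block, a GC correction (loess, span 0.3, degree 2, per library) and each library left out were alternatives. Leaving out both libraries with melanoma markers was chosen after seeing the data. Each test was tried on simulated counts. Ratios of summed UMIs have exact binomial 95% intervals scaled by library totals. An exact permutation test of 3 against 3 cannot give a p below 0.1.

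Coordinates and 3′ ends came from GENCODE M21 (GRCm38), with a transcript for 10468 of 10520 genes, 323 of them by an older symbol. Promoters came from RefSeq (GRCm38.p6). Every remodelling gene past the test and every catalytic ATPase is named with its counts. The remodelling genes and lists were chosen with earlier results of these data known. The title numbers of the libraries run from 13 to 15 in shControl and from 16 to 18 in shLmna, so any effect of position and that of the group cannot be told apart.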

Additional observations from a re-analysis of the deposited data

How the results depend on the processing

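The Lmna knockdown and the calls of Smarcad1, Hells, Smarca5 and Mta1 kept their direction and passed under every alternative that tested them, and no called change reversed. As given above, the filter kept Smarcad1, Hells and Smarca5 only through their shLmna libraries. Requiring a mean count of at least 50 tested fewer genes, which left 158 differentially expressed and 779 past the adjusted p. Among the remodelling genes it left 0 differentially expressed and 3 past the test, 2 higher (Mta1 and Chd3) and 1 lower (Ruvbl1). Smarcad1, Hells and Smarca5 lie under that minimum, and Rbbp7 and Dpf2 were tested but no longer passed, with changes of 0.89 and -0.51. With each library left out, between 540 and 1580 genes passed and between 346 and 654 were differentially expressed. Among the remodelling genes between 4 and 9 passed, 4 to 6 higher and 0 to 3 lower, and 3 to 4 were differentially expressed. The share that passed was 8.7 to 20%, against 5.89 to 17.2% of all genes. Totals fell by over 1.5 times without shControl replicate 1 (794), shControl replicate 2 (540), shLmna replicate 2 (757) or shLmna replicate 3 (651). Without both libraries with melanoma markers 6 remodelling genes passed (13.6%, against 13.2% of all genes), 1 of them lower, and 0 of the other subunits. Of the other subunits 5 passed with the GC correction (Btaf1, Cdk2ap1, Ino80e, Mbtd1 and Uchl5), and 0 to 2 with each library left out. In the fit with a replicate block 1350 genes and 8 remodelling genes passed, and 3 of the other subunits (Cdk2ap1, Ino80e and Yy1), or 6 together with the GC correction. The correlation of deviations of same-numbered libraries was 0.352, -0.115 and 0.00519, so only those numbered 1 varied together. The pair of shControl replicate 3 and shLmna replicate 2 gave 0.35. What the numbers share is not in the labels. The share of higher genes among those past the test was 58% and 48.5% with the GC correction. The causes of these shifts were not tested. The depth limits genes under about 10 UMIs per library, which include 6 of the remodelling genes.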
